A study of Mus musculus with 8 samples.

Results

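The family of miRNAs that share the seed of miR-15, miR-16, miR-195 and miR-497 was followed through the livers of CCL4-treated mice. Its members were taken by name from the array's annotation as mmu-miR-15a, mmu-miR-15b, mmu-miR-16, mmu-miR-195, mmu-miR-497 and mmu-miR-322, which are 6 of the 567 mouse miRNAs read by the array. Of these, miR-15a, miR-15b and miR-16 come from the miR-15/16 clusters, miR-195 and miR-497 come from a cluster of their own, and miR-322 comes from the X chromosome. Liver RNA of 8 arrays was analysed, 5 from mice that received CCL4 in olive oil (1 array after 4 weeks, and 2 each after 6 weeks and after 8 weeks) and 3 from mice that received olive oil alone (1 array at each of these weeks). All mice were male C57BL/6J and 8 weeks of age when dosing began, so age at sampling rose with the week. No genetic alteration is named. The agent was a 10% solution injected intraperitoneally, more often in the first 4 weeks than afterwards. Whether RNA of several mice was pooled for an array is not given in the sources used here. Arrays are therefore the unit of n, and p-values measure the spread between arrays only, which may be technical.

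MicroRNAs are short RNAs that guide a silencing complex to messenger RNAs. The seed, a stretch near the 5′ end, does most of the pairing with the target, so miRNAs with one seed are expected to share many targets even when they are transcribed from different loci. The miR-15/16 family is known for holding back the cell cycle through cyclins and cyclin-dependent kinases, and for lowering the anti-apoptotic protein BCL2. CCL4 is a liver toxin that is converted to a radical in hepatocytes, and repeated dosing leads to inflammation, activation of stellate cells and deposition of collagen.

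The 6 mature sequences are shown because the comparison rests on what they share and where they part. They were taken from RefSeq (build GRCm38.p6), in which all 6 members were matched, and are written 5′ to 3′ with the seed (bases 2 to 8) in capitals.
miR-15a: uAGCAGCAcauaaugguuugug
miR-15b: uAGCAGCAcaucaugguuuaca
miR-16: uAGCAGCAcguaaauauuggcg
miR-195: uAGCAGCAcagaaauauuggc
miR-497: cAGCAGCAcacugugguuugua
miR-322: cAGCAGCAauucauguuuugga
The capitals read alike in all 6 lines, and the differences lie outside them. Counted from the 5′ end without gaps, miR-16 and miR-195 were identical at 19 of 21 bases and differed by G10A and U11G, with the miR-16 base first. Their loci lie on different chromosomes, and they were closer in sequence than the 2 members of either cluster were to each other. Within the clusters, miR-15a and miR-16 were identical at 16 of 22 bases, and miR-195 and miR-497 at 12 of 21. Likewise miR-15a was closer to miR-15b (18 of 22) and to miR-497 (17 of 22) than to its neighbour miR-16. RefSeq held 10 mature mouse miRNAs with this seed, and the 4 others (miR-195b, miR-6342, miR-6353 and miR-6419) were not on the array.

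The array located its probes on mm9. Probes of miR-15a lay at chr14:62250912-62250933 and those of miR-16 at chr14:62250773-62250790, 121 bases apart. RefSeq places this pair of hairpins within Dleu2, a long non-coding RNA gene, and a second pair that makes miR-15b and the same mature miR-16 within Smc4, a gene for a condensin subunit. The miR-15b probe with a position lay at chr3:68813699-68813718. Since both copies give one mature miR-16, the array could not assign it to a locus. Probes of miR-195 lay at chr11:70048566-70048584 and those of miR-497 at chr11:70048234-70048253, 312 bases apart. The miR-322 probes lay at chrX:50407483-50407504, and the hairpin lies within the non-coding gene C430049B03Rik according to RefSeq.

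All 6 members were called detected on all 8 arrays, none of their spots was saturated, and the error estimated by the scanner software was 7.09 to 12.9% of the signal. A level below is log2 of a signal over the 75th percentile of all 567 mouse miRNA signals of its array. Of the 567 miRNAs, 133 were detected on at least 3 arrays and were tested with limma, with week as a factor and Benjamini-Hochberg adjustment over the 133. The 75th percentile ranged from 6.53 to 11.0 with CCL4 and from 4.71 to 6.48 with olive oil. On every olive oil array it lay below the lowest detected signal (7.12, 6.26 and 7.80 at 4, 6 and 8 weeks). On every CCL4 array it lay above the lowest detected signal. The scale was therefore a signal not called detected in olive oil, which limits the comparison of levels between the groups. Lying above the lowest detected signal does not make the scale a detected signal with CCL4. On the CCL4 arrays of 6 weeks 121 and 136 miRNAs were detected, and on the second of 8 weeks 123. The olive oil arrays had 117 to 126, so the scale may lie among undetected signals on those CCL4 arrays too. With this scaling the median difference of the 133 miRNAs was -0.32, and without any scaling it was 0.35. The direction of a single miRNA can therefore depend on the scaling. The ratio of 2 miRNAs of one array does not depend on any factor common to that array.

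The first question was whether each member changed with CCL4 over the 3 times. Of the 6 members, 2 were lower in the CCL4 arrays (miR-15a and miR-16), 1 was higher (miR-497), and miR-15b, miR-195 and miR-322 did not pass the threshold. None of these 3 calls held without the filter on detection or without the week term. Over all tested miRNAs 35.3% were lower and 13.5% were higher. The split of the calls moved with the scaling. It was 18 higher and 47 lower in all, with 1 and 2 of the family. Without scaling it was 34 and 0, with 4 and 0 of the family, and with normexp background correction 11 and 0, with 3 and 0 of the family. With quantile normalization it was 13 and 17, and with a percentile of only the 113 miRNAs detected on every array 21 and 10, each with 2 and 0 of the family. With the median as the scale it was 20 and 69, with 2 and 2 of the family.

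miR-15a had a CCL4 level of 6.61 at 4 weeks, of 6.60 and 6.88 at 6 weeks, and of 7.11 on both arrays at 8 weeks. Olive oil gave 7.33 at 4 weeks, 7.36 at 6 weeks and 7.36 at 8 weeks. All 5 CCL4 arrays lay below the 3 olive oil arrays, which differed little among themselves. The difference was -0.51 ± 0.16 (standard error of the limma fit, adjusted p = 0.0232; 5 arrays against 3). The exact permutation test over 56 splits, which ignored week, gave p = 0.0357 (two-sided), the smallest it allows. At 4, 6 and 8 weeks the level was 0.609, 0.649 and 0.841 times that of the olive oil array. The signals before scaling were 928, 631, 891, 1519 and 1199 with CCL4, in the same order, and 820, 775 and 1063 with olive oil, and here the groups overlapped. Without scaling the difference was 0.16 ± 0.22 (limma, adjusted p = 0.654), under normexp background correction 0.07, and under quantile normalization 0.05. The median of all tested miRNAs was 0.35, 0.09 and -0.06 under these settings, and -0.32 with the 75th percentile as scale, so miR-15a was below that median under all of them except quantile normalization. The call was also lost without the arrays of 4 weeks (-0.44 without either one, since each is the partner of the other) and without the olive oil array of 6 weeks (-0.45).

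miR-16, the neighbour of miR-15a, had levels of 5.93 at 4 weeks, 5.92 and 6.09 at 6 weeks, and 6.36 and 6.41 at 8 weeks in the CCL4 arrays, against 6.59, 6.45 and 6.57 in olive oil. Again the 5 CCL4 arrays lay below the 3 olive oil arrays. Among the tested miRNAs, 43.6% had all CCL4 arrays below all olive oil arrays. No member had all CCL4 arrays above all of olive oil, which 9.02% had. The difference of miR-16 was -0.41 ± 0.15 (limma, adjusted p = 0.0442; exact permutation p = 0.0357, two-sided, the smallest possible), with 0.635, 0.732 and 0.883 times the olive oil level at 4, 6 and 8 weeks. It was 0.26 without scaling and 0.16 under normexp, neither past the threshold, and -0.03 under quantile normalization. It lost the call without any 1 array except the olive oil array of 8 weeks: the difference was then -0.32 without either array of 4 weeks, -0.38 and -0.43 without the first and second CCL4 array of 6 weeks, -0.42 and -0.44 without those of 8 weeks, and -0.38 without the olive oil array of 6 weeks.

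miR-15b, the member of the other miR-15/16 cluster, had levels of 5.72 at 4 weeks, 5.91 and 5.92 at 6 weeks, and 6.04 and 6.11 at 8 weeks with CCL4, and of 6.08, 5.59 and 5.85 with olive oil. The groups overlapped. The CCL4 array was lower than its control at 4 weeks (0.781-fold) and higher at 6 and 8 weeks (1.25-fold and 1.17-fold). The difference over all weeks was 0.10 ± 0.16 (limma, adjusted p = 0.604), and -0.02 when the olive oil array of 6 weeks was left out. Unscaled it was 0.77 (limma, adjusted p = 0.01002), and all 5 unscaled CCL4 signals (394 to 726) lay above all 3 of olive oil (227 to 375). The unscaled median of all tested miRNAs was 0.35. The share of them that separated in this way was not counted.

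miR-195 had levels of 3.92 at 4 weeks, 3.65 and 4.19 at 6 weeks, and 4.52 and 4.41 at 8 weeks with CCL4, against 3.86, 3.52 and 3.80 with olive oil. Each CCL4 array exceeded its control of the same week, and the first CCL4 array of 6 weeks lay within the olive oil range. How far the probes of miR-195 also capture miR-16 was not tested, so its level, and its ratio to miR-16, may hold a part of miR-16 signal. The difference was 0.40 ± 0.18 (limma, adjusted p = 0.0787; exact permutation p = 0.143, two-sided), and the level was 1.04, 1.32 and 1.59 times that of the control at 4, 6 and 8 weeks. It passed the threshold under other scalings, with 1.07 (adjusted p = 0.00218) without scaling, 0.60 (0.0151) with that percentile restricted to miRNAs detected on every array, 0.51 (0.0303) with quantile normalization and 0.55 (0.0439) with normexp. It also passed with the median as the scale (0.41, adjusted p = 0.0128), with an intensity trend (0.0448) and when miRNAs without detection on every array were left out (0.0465).

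miR-497, transcribed beside miR-195, had levels of 3.91 at 4 weeks, 3.52 and 4.09 at 6 weeks, and 4.33 and 4.27 at 8 weeks with CCL4, against 3.63, 3.43 and 3.56 with olive oil. All 5 CCL4 arrays were above the control of their week, and 4 of them were above all olive oil arrays. The difference was 0.48 ± 0.18 (limma, adjusted p = 0.0422; exact permutation p = 0.107, two-sided), or 1.21, 1.29 and 1.67 times the control at 4, 6 and 8 weeks. Without scaling it was 1.15 (adjusted p = 0.00138), with signals of 142, 74.8, 129, 221 and 168 against 63.3, 50.8 and 76.4. With the replicate number as a block it was 0.38 (adjusted p = 0.112), and without a week term 0.48 (0.0730). The call was lost without any 1 array except the first CCL4 array of 6 weeks, with 0.56 without either array of 4 weeks, 0.41 without the second CCL4 array of 6 weeks, 0.45 and 0.46 without the first and second of 8 weeks, and 0.54 and 0.33 without the olive oil arrays of 6 and 8 weeks.

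miR-322, the mouse counterpart of miR-424, had the lowest signals of the family, from 27.0 to 80.5. Its levels were 3.08 at 4 weeks, 2.09 and 2.78 at 6 weeks, and 2.72 and 2.80 at 8 weeks with CCL4, against 2.72, 2.52 and 2.60 with olive oil. Both the highest and the lowest value were CCL4 arrays. The difference was 0.13 ± 0.19 (limma, adjusted p = 0.590), and without scaling 0.80 (adjusted p = 0.0253). miR-503, which is processed beside miR-322, was not detected on any array.

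**Figure D1:**
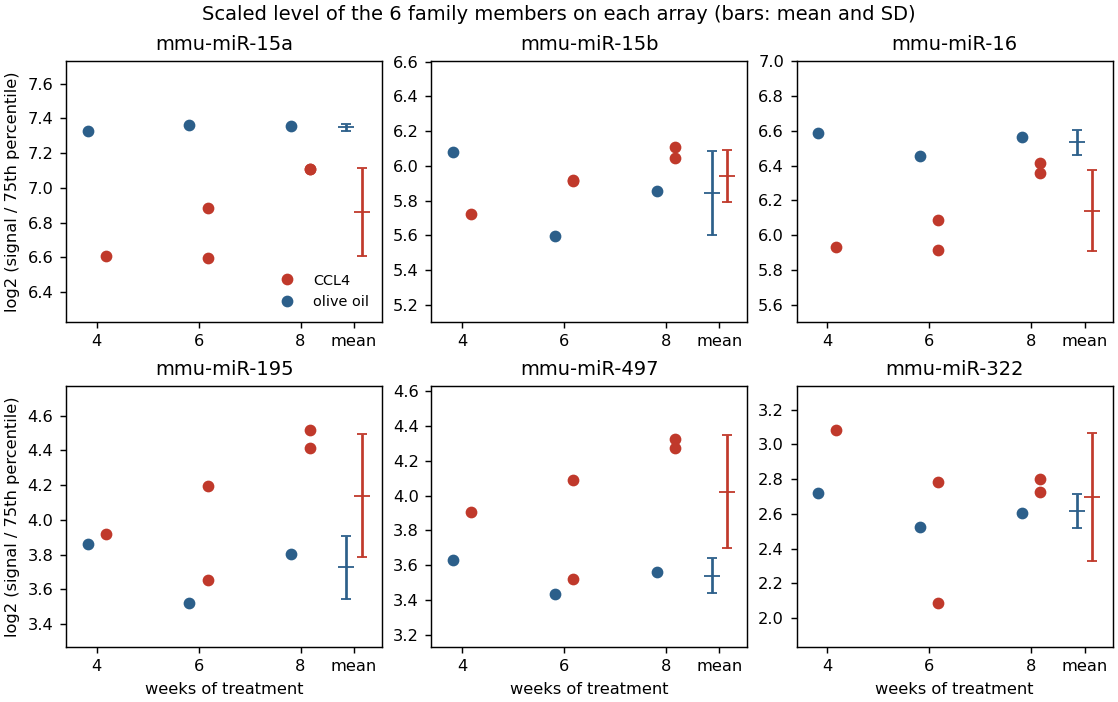
Level of each family member (log2 of signal over the 75th percentile of its array) against weeks of treatment, 1 point per array, CCL4 in red and olive oil in blue, with the mean and SD of each group at the right; each panel spans the same range of 1.5. The CCL4 points lie below the olive oil points in the panels of miR-15a and miR-16, above the control of the same week in those of miR-195 and miR-497, and on both sides in those of miR-15b and miR-322.

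**Figure D2:**
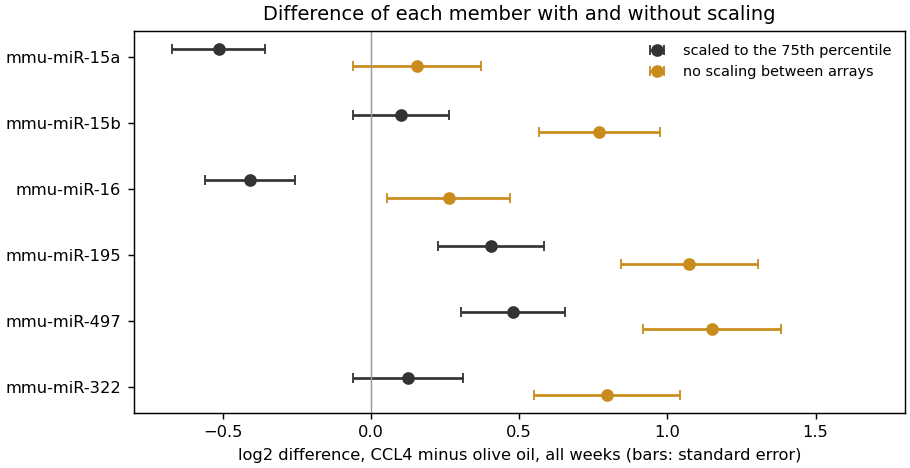
Difference between CCL4 and olive oil over all weeks (log2, bars give the standard error) of each member with the 75th percentile as scale (black) and without scaling (orange). Without scaling all 6 members shift to the right by the same 0.67, from -0.51 to 0.16 for miR-15a and from 0.48 to 1.15 for miR-497, and keep their order.

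With this scaling, all members except miR-322 had a larger level relative to their control at 8 weeks than at 4 weeks, as did 74.4% of the 133 tested miRNAs. The treatment effect did not differ between weeks past the threshold for any of the 6 (limma, lowest adjusted p = 0.684, for miR-15b). The lowest unadjusted p was 0.254, and over all tested miRNAs 6.02% passed. This test had 2 residual degrees of freedom and a single pair of arrays at 4 weeks, so a change over time was not detectable unless large.

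The second question was whether the cluster of miR-195 and miR-497 moved apart from the miR-15/16 clusters that share its seed. Both members of the cluster of miR-195 and miR-497 were higher in CCL4 liver relative to the mean of miR-15a, miR-15b and miR-16 on the same array. Relative to that mean, miR-195 stood at -2.17 after 4 weeks of CCL4, at -2.49 and -2.10 after 6 weeks, and at -1.98 and -2.13 after 8 weeks, against -2.80, -2.95 and -2.79 in olive oil. miR-497 stood at -2.18, then -2.62 and -2.21, then -2.18 and -2.27 with CCL4, against -3.03, -3.04 and -3.03 with olive oil. For both, every CCL4 array lay above every olive oil array, which held for 17.7% of the 130 miRNAs set against the same mean. These log2 values carry the efficiency of each probe, so only their change between arrays is compared.

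The change was 0.68 ± 0.11 for miR-195 (1.60-fold; limma, adjusted p = 0.00709) and 0.75 ± 0.12 for miR-497 (1.69-fold; adjusted p = 0.00658), each with an exact permutation p of 0.0357 (two-sided), the smallest possible. By week it was 1.55-fold, 1.57-fold and 1.66-fold for miR-195 and 1.804-fold, 1.54-fold and 1.75-fold for miR-497 at 4, 6 and 8 weeks. Among the 130 miRNAs, 17.7% were called higher and 18.5% lower relative to the same mean, so the pair was 2 of 23 called higher. The change passed the threshold without any 1 of the 8 arrays, with 0.62 to 0.74 for miR-195 and 0.70 to 0.83 for miR-497. A scale factor common to an array leaves it as it is. Methods that treat bright and dim miRNAs differently reduced it, to 0.39 and 0.44 under quantile normalization (adjusted p = 0.0329 and 0.0374) and to 0.29 and 0.30 under normexp (0.0146 and 0.0130). miR-322 changed by 0.40 ± 0.19 relative to the same mean (limma, adjusted p = 0.135), with 0.94 at 4 weeks, 0.16 at 6 weeks and 0.23 at 8 weeks.

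**Figure D3:**
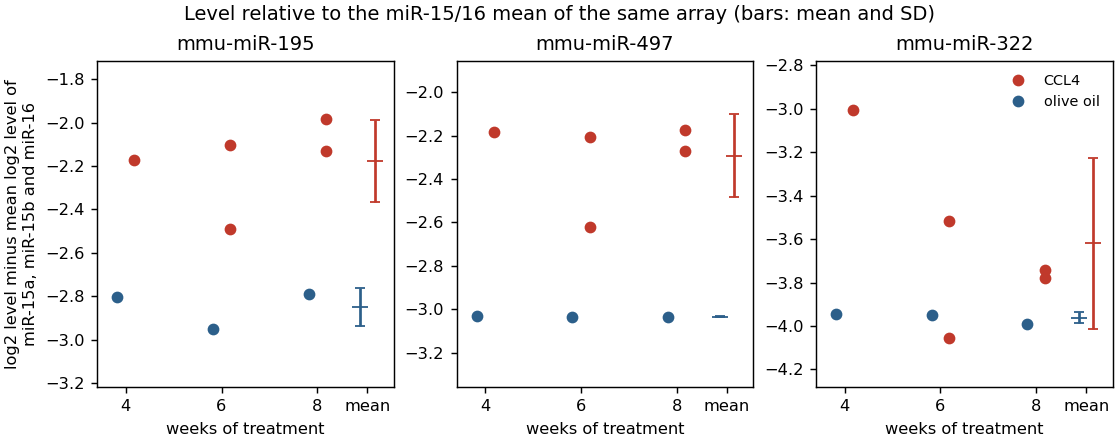
Level of miR-195, miR-497 and miR-322 minus the mean level of miR-15a, miR-15b and miR-16 of the same array (log2) against weeks of treatment, 1 point per array, with the mean and SD of each group at the right. The 5 CCL4 points of miR-195 (-2.49 to -1.98) and of miR-497 (-2.62 to -2.18) lie above the 3 olive oil points, and those of miR-322 do not separate.

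The 3 miRNAs behind that mean did not move together. The level of miR-15a minus that of miR-16 stayed between 0.68 and 0.91 on all 8 arrays. The level of miR-15b minus that of miR-16 lay between -0.31 and -0.003 with CCL4 and between -0.86 and -0.51 with olive oil. Set against miR-15a alone, miR-15b rose by 0.61 ± 0.13 (limma, adjusted p = 0.0179), and set against miR-16 alone by 0.51 ± 0.11 (adjusted p = 0.0161). The difference of miR-15b over all weeks (0.10) lay between those of miR-15a and miR-16 and those of miR-195 and miR-497.

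The reference decided how large the contrast was. Against miR-15a alone, miR-497 rose by 0.99 ± 0.08 (adjusted p = 3.958e-04), with 1.99-fold, 2.00-fold and 1.99-fold at 4, 6 and 8 weeks, and miR-195 rose by 0.92 ± 0.09 (adjusted p = 7.236e-04). With this reference 4 of the 5 other members were higher (miR-15b, miR-195, miR-497 and, at 0.64 with adjusted p = 0.0244, miR-322), as were 32.6% of the 132 miRNAs (1.52% were lower), while miR-16 was at 0.11 (adjusted p = 0.2495). Against miR-16 alone, miR-195 rose by 0.81 (adjusted p = 0.00252) and miR-497 by 0.89 (0.00204), and 3 of 5 members were higher beside 19.7% of all (3.79% were lower). Against miR-15b alone, miR-195 was at 0.30 ± 0.19 (adjusted p = 0.188) and miR-497 at 0.38 ± 0.20 (0.118). None of the 5 members was higher than this reference at an adjusted or unadjusted p under 0.05 by limma, beside 9.09% of all, and miR-15a and miR-16 were lower, beside 43.9% of all. The levels of miR-16 and miR-195, which differ at only 2 bases, came apart, with a difference of -2.26 to -1.84 with CCL4 and -2.93 to -2.73 with olive oil (exact permutation p = 0.0357, two-sided; 1 of 6 pairs compared, unadjusted).

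Of the 3 pairs of neighbouring loci, miR-195 with miR-497 and miR-15a with miR-16 kept a narrow range of ratios over the arrays, and miR-15b with miR-16 did not. The level of miR-195 minus that of miR-497 ranged from 0.01 to 0.24 over all 8 arrays, a span of 0.23, which was also the span of miR-15a minus miR-16. As a measure of likeness, each profile was centred on its own mean over the 8 arrays and the root mean square difference between profiles was taken. It was 0.07 for miR-195 and miR-497 and 0.07 for miR-15a and miR-16. Every other pair of members was at 0.25 or more, with 0.25 for miR-15b and miR-195, 0.27 for miR-15b and miR-16, 0.41 for miR-16 and miR-195 and 0.48 for miR-15a and miR-497. The 8 arrays share a slide and the scaling, so these distances are a description.

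**Figure D4:**
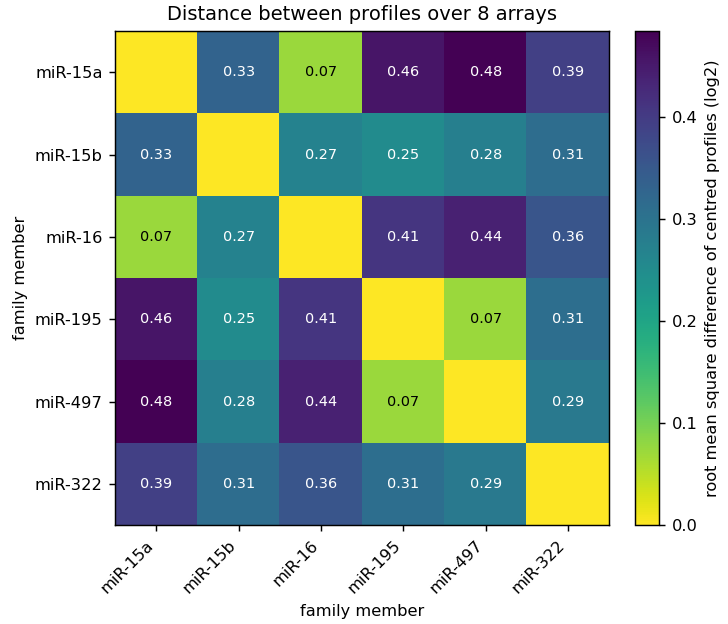
Root mean square difference (log2) between the centred profiles of each pair of members over 8 arrays; lighter cells are more alike. The pairs miR-15a with miR-16 and miR-195 with miR-497 are at 0.07, and all other pairs lie between 0.25 and 0.48.

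By the same measure the tested miRNAs outside the family nearest to miR-15a were miR-26b (0.06), miR-30b and let-7f (both 0.07), and those nearest to miR-16 were miR-30b, miR-212 and miR-338-3p (0.08 to 0.09). Nearest to miR-497 was miR-199a-5p (0.09), followed by miR-200b (0.12) and miR-200a (0.13). The same 3 miRNAs were nearest to miR-195, at 0.14 to 0.15. miR-15b had no close match, with miR-33, miR-350 and let-7i at 0.16 to 0.18, and miR-322 was nearest to miR-143 (0.13), miR-23a and miR-21 (both 0.15).

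Each member was read by a pair of probes with 10 spots each, and the probes of a member gave the same direction. For miR-195 they differed between CCL4 and olive oil by 0.48 and 0.38 (difference in log2 probe level), for miR-497 by 0.47 and 0.48, for miR-15a by -0.52 and -0.51 and for miR-16 by -0.38 and -0.41. The miR-15b probes gave 0.004 and 0.14, and those of miR-322 gave 0.12 and 0.13. Of the other products of these loci, 13 of 15 listed (star strands, miR-503, miR-351 and the miR-450 and miR-542 miRNAs) were on the array, and 12 of them were detected on no array. miR-542-5p was called detected on 1, the olive oil array of 4 weeks.

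Markers of several cell types moved with treatment in the same tissue. In whole liver, fewer cells of a type and less of a miRNA per cell cannot be told apart. The hepatocyte miRNAs miR-122, miR-192 and miR-194 were lower, 3 of 3 tested, with differences of -0.78, -0.66 and -0.60 (log2), beside 35.3% of all tested miRNAs. Without scaling none of the 3 was called, at -0.11, 0.01 and 0.07. No tested miRNA was called lower without scaling, and the median difference of all was 0.35, above these 3 values. They had a summed level of 11.2 to 12.0 in CCL4 and 12.4 to 12.5 in olive oil. miR-802, another hepatocyte miRNA that was not on this list, went the other way. With scaling it was higher in CCL4 (0.68, limma, adjusted p = 0.0232). Among the mesenchymal miRNAs, which are known from fibroblasts and stellate cells, 4 of 5 tested were higher (miR-199b* 1.46, miR-214 1.00, miR-199b 0.74 and miR-199a-5p 0.55), and miR-143 was at 0.34 (limma, adjusted p = 0.122), beside 13.5% higher of all. Without scaling all 5 were higher, beside 34 of all 133 tested miRNAs. miR-145, a defining miRNA of smooth muscle, was not detected on any array. Their summed level was 4.94 to 5.65 in CCL4 and 4.49 to 4.88 in olive oil. Of 4 leukocyte miRNAs tested, none was higher by limma, with none at an unadjusted p under 0.05 either, and miR-146a was lower. Without scaling miR-223 was higher (0.92, adjusted p = 0.0253) and miR-146a was not called (-0.20). Their summed level was 5.65 to 7.18 in CCL4 and 6.17 to 6.74 in olive oil. The erythroid and endothelial lists had 0 of 3 and 0 of 2 past the threshold, with summed levels of 8.56 to 9.91 against 9.07 to 10.3 and of 7.09 to 7.68 against 7.74 to 7.82. The part of these cell types in the changes of the family was not tested.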

How the data were processed

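The authors' deposited intensity values came, per the file headers, from Feature Extraction 10.5.1.1, with spot background removed and the probes of a miRNA added up. The software's detection flags were used as given, and the methods name another version and scanner. No scaling between arrays had been applied. The deposited log2 table matched the log2 signal within 1.107e-06 over 4536 values once signals below 1 were raised to 1. Signals were set relative to the 75th percentile of the array (567 mouse miRNAs), floored at 0.01 and taken to log2, in the order that keeps the floor last. limma 3.58.1 (R 4.3.3, data.table version 1.17.8) was fitted to miRNAs detected on at least 3 arrays, with treatment and week (4 residual degrees of freedom) or with 1 mean per group for the interaction (2). P-values were adjusted by Benjamini-Hochberg, and 0.05 was the threshold. For the contrast within the family, the mean log2 level of miR-15a, miR-15b and miR-16 of the array was subtracted from every other tested miRNA before the fit. Exact permutation tests covered all 56 splits of 5 and 3 arrays and, unlike the limma fit, took no account of week.

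The code of the fits was checked on simulated data with independent noise. The planted changes were larger than those of single members with this scaling. The check does not show that changes of the family's size would be found. The members, the lists and the tests were chosen with earlier results of these data known. Named miRNAs are the 6 members, their loci's other products, the marker lists and the 3 miRNAs nearest to each member. Detected miRNAs numbered 117 to 158 per array, and the number of arrays limits the precision. Alternatives covered scaling, floor, background (normexp with an offset of 50), filter, variance trend, week term, replicate block, the methods' t-test, the reference miRNA and each array left out.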

Additional observations from a re-analysis of the deposited data

Results flagged for a closer look

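One value stood apart from its group. In the level of miR-497 relative to the mean of miR-15a, miR-15b and miR-16, the first CCL4 array of 6 weeks was at -2.62 and the other 4 CCL4 arrays lay between -2.27 and -2.18. Its gap to the nearest of them was 0.785 of the group's range, which exceeded Dixon's 95% critical value for 5 samples. Of 9 sets of 5 CCL4 arrays examined this was the only one. Chance gives about 1 in 20 for each set, so 1 flag among 9 sets is not unusual. The 5 arrays also come from different weeks and are not replicates of 1 condition, which the critical value assumes. Without this array the change of miR-497 was 0.83 (limma, adjusted p = 0.00345), against 0.75 with it.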

How the results depend on the processing

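The change of miR-195 and miR-497 relative to the miR-15/16 mean could not be moved by 9 of the 26 alternatives, which change only the scale factor, the floor, the set of miRNAs tested or the variance model. Under the 17 that could move it, both changes passed the threshold in the same direction under 16. The calls were lost with no filter on detection (0.68 and 0.75, both at adjusted p = 0.0901, where more miRNAs were tested) and miR-15b alone as the reference (0.30 and 0.38). Leaving out 1 array gave 0.62 to 0.74 for miR-195 and 0.70 to 0.83 for miR-497. With the replicate block it was 0.63 and 0.71 (adjusted p = 0.0302 for both). The direction of single members was less stable. miR-15a turned to 0.16 without scaling, 0.0494 under quantile normalization and 0.0684 under normexp, miR-16 to 0.26 and 0.16 without scaling and under normexp, miR-15b to -0.0249 without the olive oil array of 6 weeks (up to 0.273 with another array left out), and miR-322 relative to the miR-15/16 mean to -0.00123 under normexp. The cause was not tested.

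The number of family members higher and lower was 1 and 2. It was 4 and 0 without scaling, 3 and 0 under normexp, 2 and 0 with the percentile over miRNAs detected on all arrays and with quantile normalization, 2 and 1 with an intensity trend, 2 and 2 with the median scale and with detection on all arrays, 0 and 0 without a filter or without the week term, 0 and 1 by the methods' t-test with Benjamini-Hochberg, and 0 and 2 with the replicate block. Leaving out 1 array gave 0 to 1 higher and 0 to 2 lower. None of the 6 had an effect that differed between weeks in any of 20 alternatives.

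Over all miRNAs, 18 were higher and 47 lower. These counts were 34 and 0 without scaling, 20 and 69 with the median scale, 11 and 0 under normexp, and 5 and 0 without a filter. Without the week term they were 11 and 16, and by the methods' t-test with Benjamini-Hochberg 10 and 23. An intensity trend gave 19 and 54, and the replicate block 12 and 54. With only the 113 miRNAs detected on all arrays tested, they were 13 and 51. Fewer were lower with the percentile over miRNAs detected on all arrays (10) and with quantile normalization (17). Leaving out 1 array gave 8 to 14 higher and 5 to 60 lower. The count of miRNAs whose effect differed between weeks was 8, and it was 0 with that percentile and with normexp, 2 with the median scale, 14 with quantile normalization, 29 without a filter and 2 to 31 with 1 array left out. What same-numbered CCL4 arrays of 6 and 8 weeks share beyond the number is not known. The correlation of their deviations was 0.0508 over 133 miRNAs, and 2 pairs cannot settle it. The block lost the call of miR-497 (0.38).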
